A study of Mus musculus with 8 samples.

Results

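Mitochondrial biogenesis is steered by a small group of nuclear genes, and 10 of them were followed here in the mouse embryonic heart: the coactivators Ppargc1a, Ppargc1b and Pprc1, the nuclear receptors Esrra, Esrrb and Esrrg, the transcription factor Nrf1, and the mitochondrial DNA proteins Tfam, Tfb2m and Polg. They were selected by symbol from a table of 49315 genes. All 10 were found, and all 10 passed the filter on low counts together with the other genes of the 16377 tested. The libraries came from whole hearts of C57BL/6 embryos at embryonic day 9.5, with 4 labelled Female and 4 labelled Male and no other treatment or allele. Embryos were sexed by genotyping Sry in tissue other than the heart. The sources used here do not give whether a library held 1 heart or a pool, or which embryos were litter mates, and the p-values below cover only the spread among the libraries at hand.

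In background terms, coactivators of the PGC-1 family bind transcription factors and raise the transcription of genes for respiration. Their partners include the estrogen-related receptors, orphan nuclear receptors that bind DNA without a known natural hormone, and Nrf1, which switches on nuclear genes for respiratory chain subunits and for the proteins that copy and transcribe mitochondrial DNA. Tfam packages mitochondrial DNA and starts its transcription, Tfb2m melts the promoter for the mitochondrial RNA polymerase, and Polg is the catalytic subunit of the mitochondrial DNA polymerase. The adult heart depends on this programme for its dense mitochondria, and the heart tube at this stage still relies strongly on glycolysis.

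Library depth ranged from 20105913 to 51134291 counts, and the members had 123 to 4266 counts in each library, so none was near the detection limit. Xist and Y-linked counts matched the labelled sex in 8 of 8 libraries, and markers of cardiomyocytes were detected in all of them. Male replicate 2 stood apart from the other libraries. Its normalization factor by trimmed mean of M values (TMM, a factor that corrects library size for composition) was 0.864, against 0.982 to 1.07 elsewhere, and its mitochondrial share of counts was the lowest. Values without it are therefore given beside the sex and mitochondrial share results of the members, the paralog ratios and the pathway lists. Levels compared between libraries are CPM (counts scaled to library size) with the TMM factors unless stated, and levels compared between genes are TPM (transcript proportions), which divide by the merged exon length.

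Every member was transcribed in the heart tube, over a wide span of levels per length. Esrra had the highest mean at 57.4 ± 15.9 TPM (SD over 8 libraries), followed by Tfam at 38.3 ± 6.39 TPM and Pprc1 at 24.3 ± 4.50 TPM. Esrra exceeded Tfam in 7 of 8 libraries, and in Male replicate 2 they were level at 24.9 and 25.0 TPM. Polg at 15.4 ± 2.78, Ppargc1a at 13.3 ± 1.08, Esrrg at 12.1 ± 3.70, Nrf1 at 11.4 ± 1.48, Ppargc1b at 10.2 ± 1.59 and Tfb2m at 8.87 ± 2.45 TPM formed a band in which neighbours in the order did not differ beyond their spread. Esrrb was lowest, at 2.49 ± 0.69 TPM, and lay below Tfb2m in 8 of 8 libraries. The merged exons of Polg (10742 bases) and Nrf1 (10282 bases) were the longest of the members. For any member, TPM and shares of TPM would be too low where a transcript shorter than the merged exons is made. Isoforms were not examined.

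None of the 10 members passed the test for sex after adjustment over all genes (edgeR quasi-likelihood test, adjusted p = 0.9995 for each), against a background of 0.0366% of all genes called. DESeq2 and limma-voom also called 0, and 1 member, Tfam, had an unadjusted p under 0.05. Of the 10, 5 had higher values in males and 5 in females, with a median log2 fold change (male minus female) of 0.0079, beside 0.011 over all genes tested. They were 6 and 4 without Male replicate 2, with a median of 0.08.

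Tfam was the member whose groups did not overlap. In replicate order it stood at 80.0, 77.6, 74.6 and 72.7 CPM in the female libraries and at 68.4, 69.96, 69.3 and 64.7 CPM in the male libraries. Every male library lay below every female library, by a small margin at the edge. The log2 fold change was -0.16 ± 0.07 (SE, unadjusted p = 0.0461 and adjusted p = 0.9995, edgeR), and it was -0.18 without Male replicate 2. Ranges that do not overlap were found for 2.23% of all genes tested, and Tfam was 1 of 10 members. In CPM of total counts without TMM factors the groups were likewise apart, at 73.3 to 80.7 in females and 60.4 to 72.04 in males.

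Polg, which replicates the DNA that Tfam packages, had 74.4, 73.6, 68.9 and 72.6 CPM in the female libraries and 68.7, 63.4, 67.8 and 69.5 CPM in the male libraries. The lowest female library lay within the range of the males, and the log2 fold change was -0.10 ± 0.07 (SE), or -0.08 without Male replicate 2. Mean Tfb2m was 10.4 ± 1.38 CPM for females and 10.4 ± 2.14 CPM for males (SD, n = 4 each), with its highest values in Male replicate 3 (12.5) and Female replicate 4 (12.4) and its lowest in Male replicate 2 (7.69). Its log2 fold change was -0.0086 ± 0.17 (SE), and 0.11 without that library. Nrf1 ranged from 47.5 to 53.1 CPM among females and from 47.7 to 54.9 CPM among males, at a log2 fold change of 0.02 ± 0.08 (SE), or -0.026 without Male replicate 2. Its coefficient of variation of 5.11% over the 8 libraries was close to that of Polg (5.14%), whereas Ppargc1b had 35.0%, or 15.8% without Male replicate 2. These 4 genes lie on GRCm38 at chr10:71225464-71238280 (Tfam), chr7:79446231-79466362 (Polg), chr1:179528055-179546267 (Tfb2m) and chr6:30047988-30153458 (Nrf1). Of the exon bases of Polg, 8.57% are shared with Fanci on the other strand (194 to 794 counts), and without strand the reads there cannot be assigned.

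Promoter windows from RefSeq (GRCm38.p6, 250 bases before to 50 after a start) were found for 9 members in 14 windows, and were searched on both strands for the letters that the regulators of this circuit recognise. The short stretches below carry a match upstream of, or close to, the start of a member, with the matched letters in capitals.

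Esrra: ccccctgttttGCATGCGCaggccggcccc
Tfb2m: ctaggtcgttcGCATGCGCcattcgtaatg
Tfam: cctgccgcggaCCGGAAGtccgggcttcc
Polg: gaggacctcacCCGGAAGtccctctgcac

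The first pair holds the core GCGCATGC of the site of Nrf1, read on the opposite strand. The match begins 34 bases before the start of Esrra (chr19:6921824-6921853, minus strand) and 13 bases after that of Tfb2m (chr1:179546245-179546274, minus strand). The core was present in 2.71% of 32851 windows and in 2 of the 14 member windows. The looser form GCGCANGC, which includes the core, stood in 9.95% of all windows and in the same 2 of 14, with 2 further matches in Esrra, of which 1 overlaps the core. The second pair holds CCGGAAG, the letters of ETS factors such as Gabpa, 47 bases before the start of Tfam (chr10:71238074-71238102, minus strand) and 38 before that of Polg (chr7:79466294-79466322, minus strand). It was present in 8.86% of all windows and in 2 of 14. In the deposited gene models, which start further upstream, the Tfam and Polg stretches lie inside the gene. The letters CAAGGTCA of the estrogen-related receptor element were in 1.56% of all windows and in 0 of 14. A match of letters is a description and shows no binding.

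Among the coactivators, Pprc1 was the main transcript per length. Pprc1, a relative of the PGC-1 coactivators known to respond to serum in cultured cells, gave 37.6% to 56.1% of the summed TPM of the family (median 51.7%), Ppargc1a 25.9% to 30.7% and Ppargc1b 16.3% to 31.7%. The ratio of Ppargc1a to Ppargc1b in TPM was, in replicate order, 1.33, 1.44, 1.22 and 1.69 for females and 1.33, 0.970, 1.51 and 1.18 for males. Ppargc1a thus exceeded Ppargc1b in every library but Male replicate 2. Ppargc1b over Pprc1 was the most variable ratio, at 0.841 in Male replicate 2 and 0.291 to 0.469 in the other 7 libraries. Neither these ratios nor that of Ppargc1a to Pprc1 passed the test for sex (exact permutation p = 0.343, 0.486 and 0.743, adjusted p = 0.743 for each over the 6 paralog pairs compared). In log2 of the count ratio, males minus females, they differed by -0.19, 0.30 and 0.11 in that order. Without Male replicate 2 these differences were -0.08, 0.021 and -0.06, so that most of the value for Ppargc1b over Pprc1 came with that library.

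**Figure D1:**
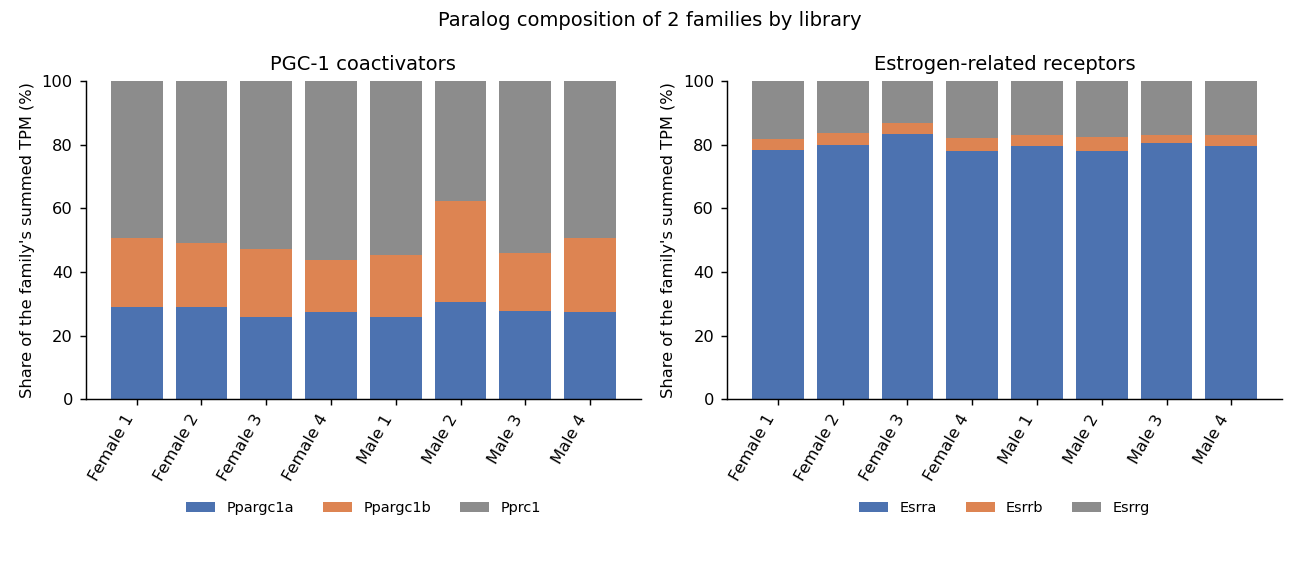
Share of each paralog in the summed TPM of its family (y axis, percent) in each of the 8 libraries, for the PGC-1 coactivators and the estrogen-related receptors. Ppargc1b takes 31.7% in Male replicate 2, its highest share, while Esrra keeps 77.9% to 83.3% of the receptor sum in all libraries.

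In CPM and in replicate order, Ppargc1a stood at 37.1, 36.8, 33.5 and 33.6 among females and at 35.3, 52.1, 35.6 and 39.4 among males. On this scale Male replicate 2 alone was far above the rest, at 1.45 times the mean of the other 7 libraries. In CPM of total counts it was still highest, at 1.23 times that mean. In TPM it had 12.5, which lay within the range of the other 7 libraries. The log2 fold change of 0.20 ± 0.13 (SE) was 0.059 without Male replicate 2. Ppargc1b stood at 16.9, 15.4, 16.7 and 12.1 CPM among females and at 16.002, 32.5, 14.3 and 20.3 CPM among males. Male replicate 2 was at 2.04 times the mean of the other 7 libraries, and at 1.73 times in CPM of total counts. In TPM it had 12.9, and Male replicate 4 came next with 12.1. The log2 fold change of 0.45 ± 0.25 (SE) was 0.15 without Male replicate 2. Pprc1 ranged from 72.2 to 78.0 CPM among females and from 72.9 to 84.6 CPM among males, at a log2 fold change of 0.08 ± 0.08 (SE), and 0.12 without Male replicate 2. Of its exon bases, 2.35% are shared with Ldb1 on the other strand. The 3 genes lie at chr5:51454250-51567726 (Ppargc1a), chr18:61298136-61400431 (Ppargc1b) and chr19:46044886-46072915 (Pprc1).

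**Figure D2:**
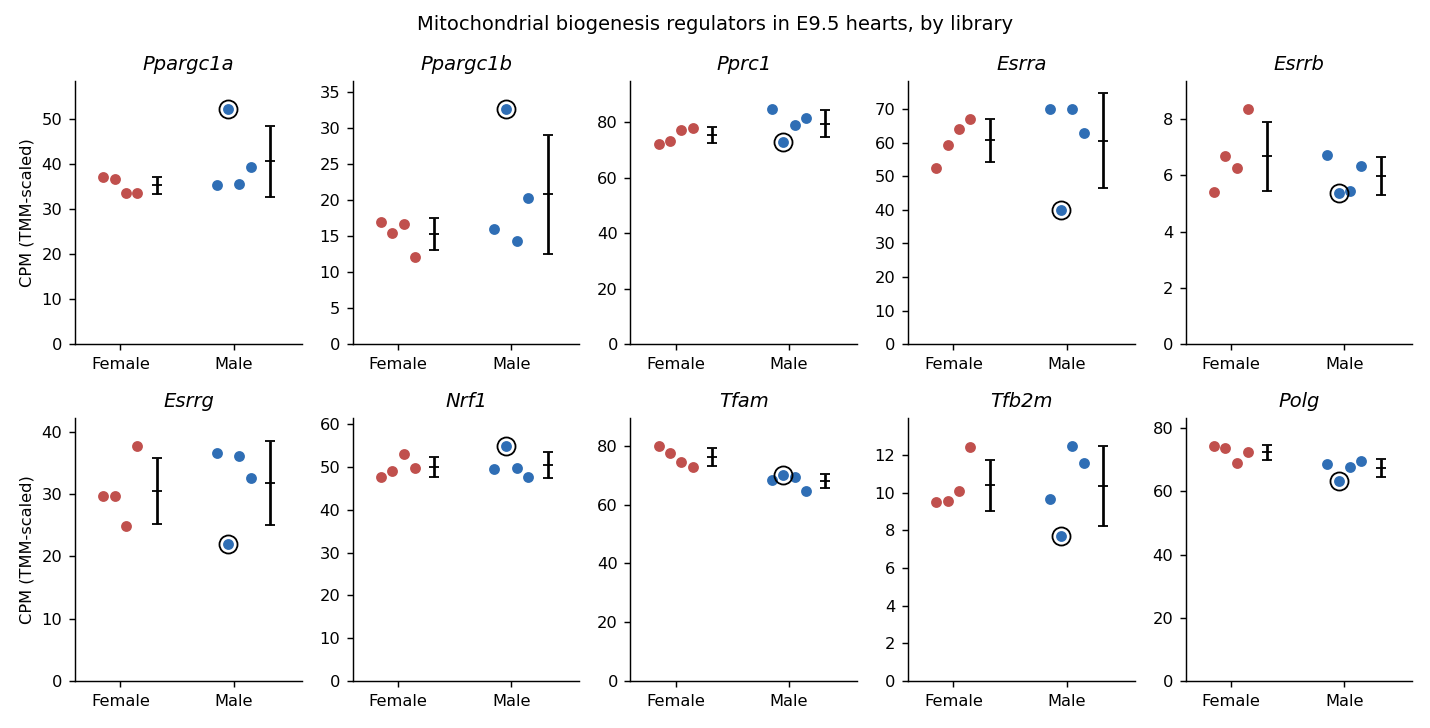
TMM-scaled CPM of each regulator (y axis, starting at 0) in 4 female and 4 male libraries, as points in replicate order with the mean and SD beside them. The ringed point is Male replicate 2, which is highest for Ppargc1a (52.1), Ppargc1b (32.5) and Nrf1 (54.9) and lowest for Esrra (39.8), Esrrb (5.36), Esrrg (22.1), Tfb2m (7.69) and Polg (63.4).

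Esrra dominated the estrogen-related receptors in all libraries. Esrra, the receptor best known for control of respiratory genes, gave 77.9% to 83.3% of the receptor TPM, Esrrg, the paralog linked to oxidative metabolism in the maturing heart, 13.3% to 18.2%, and Esrrb, known from stem cells and placenta, 2.62% to 4.401%. In replicate order Esrra stood at 52.4, 59.4, 64.0 and 66.9 CPM among females and at 69.95, 39.8, 69.94 and 62.8 CPM among males. Male replicate 2 lay below all other libraries, and the 3 other males lay within or just above the female range. The log2 fold change was -0.0017 ± 0.17 (SE), and 0.15 without Male replicate 2. Esrrg stood at 29.8, 29.7, 25.0 and 37.8 CPM among females and at 36.6, 22.1, 36.2 and 32.6 CPM among males, again with Male replicate 2 lowest. Its log2 fold change was 0.06 ± 0.18 (SE), and 0.19 without that library. Esrrb ranged from 5.42 to 8.35 CPM among females and from 5.36 to 6.73 CPM among males (log2 fold change -0.17 ± 0.16, SE). The value was -0.12 without Male replicate 2, -0.038 without Female replicate 4 and -0.25 without Female replicate 1.

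Esrra over Esrrg in TPM lay between 4.30 and 4.89 in 7 libraries, Male replicate 2 included at 4.41, and was 6.27 in Female replicate 3. Esrra over Esrrb ran from 17.7 in Male replicate 2 to 30.7 in Male replicate 3, and Esrrb over Esrrg from 0.154 to 0.258. None of the 3 ratios passed the test for sex (exact permutation p = 0.714, 0.543 and 0.314, adjusted p = 0.743 for each over the 6 pairs). Their log2 differences, males minus females, were -0.08, 0.12 and -0.20, and -0.06, 0.26 and -0.32 without Male replicate 2. The receptors lie at chr19:6910977-6921813 (Esrra), chr12:86361117-86521628 (Esrrb) and chr1:187608791-188214885 (Esrrg), and Esrra shares 2.88% of its exon bases with Trmt112 on the other strand.

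The share of counts from the mitochondrial chromosome sums the mitochondrial genes counted in each library. These hold no ribosomal RNA genes, so the share does not measure all mitochondrial RNA. In replicate order it was 0.999%, 1.31%, 1.05% and 1.72% for females and 1.41%, 0.707%, 1.58% and 1.299% for males. The mean was 1.27% ± 0.33 for females and 1.25% ± 0.38 for males (SD, n = 4 each). By the exact permutation test p was 0.886, and the difference of -0.019 percentage points was 0.16 without Male replicate 2. The share rests on 7 of the 35 mitochondrial genes in the table (mt-Nd1, mt-Co1, mt-Cytb, mt-Nd4, mt-Nd2, mt-Nd6 and mt-Nd5), which held 98.6% of it. The neighbours mt-Co2, mt-Atp8, mt-Atp6 and mt-Co3 held 0.0755% together, and the sources used here do not give how reads that map to several places were counted. The gene mt-Co1, a core subunit of cytochrome c oxidase, varied most of the 7, from 664 CPM (Male replicate 2) up to 5001 CPM (Female replicate 4). It supplied 8.11% of the mitochondrial counts in the former and 31.2% in the latter.

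**Figure D3:**
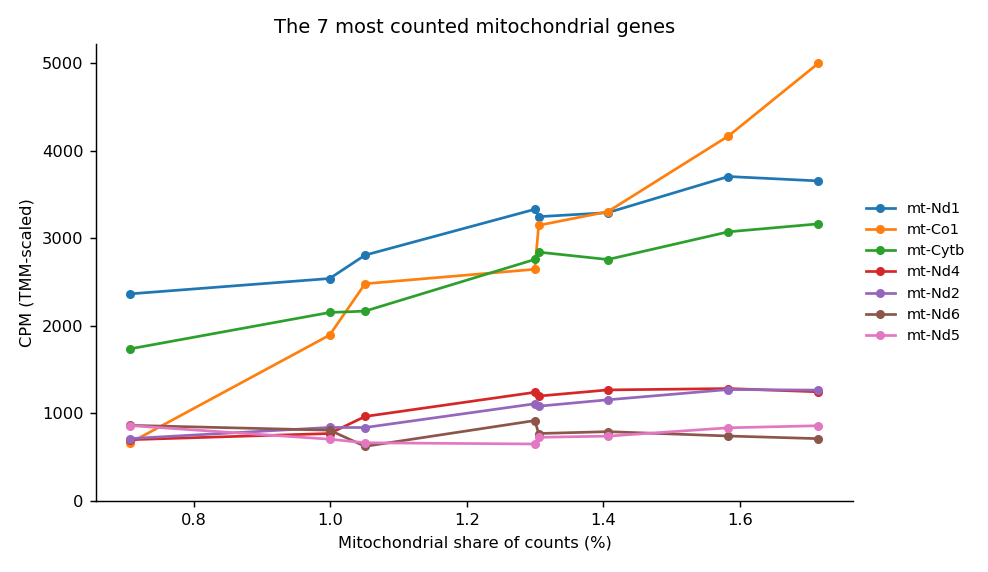
TMM-scaled CPM of the 7 most counted mitochondrial genes (y axis) against the mitochondrial share of counts in each of the 8 libraries (x axis, percent), with lines joining the points of a gene. The gene mt-Co1 spans 664 to 5001 CPM, whereas mt-Nd5 and mt-Nd6 stay between 622 and 917 CPM.

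Across the 8 libraries, the receptors Esrra and Esrrg and the factor Tfb2m had higher CPM where the mitochondrial share was higher, and Ppargc1a and Ppargc1b had lower CPM. Pearson's r with the share was 0.93 for Esrrg (exact permutation p = 0.000992, Spearman's rho 0.86, p = 0.0107), 0.86 for Tfb2m (exact permutation p = 0.00784, rho 0.79, p = 0.0279), 0.86 for Esrra (exact permutation p = 0.00469, rho 0.81, p = 0.0218), -0.81 for Ppargc1b (exact permutation p = 0.00722, rho -0.90, p = 0.00456) and -0.71 for Ppargc1a (exact permutation p = 0.0415, rho -0.57, p = 0.151). The other relations of the 10 computed were 0.65 for Esrrb (exact permutation p = 0.0755, rho 0.76, p = 0.0368), 0.56 for Pprc1 (p = 0.147, rho 0.64, p = 0.0962), 0.38 for Polg (p = 0.35, rho 0.048, p = 0.935), -0.22 for Tfam (p = 0.591, rho -0.29, p = 0.501) and -0.53 for Nrf1 (p = 0.184, rho -0.048, p = 0.935). Without Male replicate 2, r was 0.87 for Esrrg, 0.75 for Tfb2m, 0.73 for Esrra, -0.64 for Ppargc1b and -0.26 for Ppargc1a. For the others it was 0.57 (Esrrb), 0.43 (Pprc1), -0.22 (Polg), -0.48 (Tfam) and -0.042 (Nrf1). CPM and the share have the total count in common, and the p-values of these correlations are not adjusted.

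For an adjustment over all genes, a fit with the mitochondrial share as a covariate was chosen after seeing the data (edgeR quasi-likelihood test). It called 5 of the 10 members, 3 higher and 2 lower with the share, where 23.5% of all genes were called higher and 23.8% lower. The members' count is thus close to the background. Per percentage point of mitochondrial share the log2 slope was 0.77 ± 0.13 for Esrrg (SE, adjusted p = 0.0003445), 0.70 ± 0.15 for Esrra (adjusted p = 0.001577), 0.63 ± 0.16 for Tfb2m (adjusted p = 0.00492), -1.15 ± 0.21 for Ppargc1b (adjusted p = 0.0007225) and -0.47 ± 0.14 for Ppargc1a (adjusted p = 0.01595).

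The relation of Ppargc1a rests on the libraries at the ends, while that of Ppargc1b was weaker without them and kept its sign. Without Male replicate 2 and Female replicate 4, the 2 farthest from the median share, r over the other 6 libraries was 0.83 for Esrrg (exact permutation p = 0.0389), 0.77 for Esrra (exact permutation p = 0.0722), 0.63 for Tfb2m (exact permutation p = 0.168), -0.37 for Ppargc1b (exact permutation p = 0.493), 0.068 for Ppargc1a (exact permutation p = 0.915) and 0.075 for Esrrb (exact permutation p = 0.864). The covariate fit without Male replicate 2 called 2 of the 10 members, Esrrg (adjusted p = 0.00517) and Esrra (adjusted p = 0.0469), both higher with the share, where 27.0% of all genes were called in either direction. Its slopes were 0.68 ± 0.16 for Esrrg (SE), 0.40 ± 0.14 for Esrra and 0.52 ± 0.20 for Tfb2m (adjusted p = 0.0667). Those of the coactivators were -0.63 ± 0.23 for Ppargc1b (adjusted p = 0.0518) and -0.10 ± 0.15 for Ppargc1a (adjusted p = 0.6425). Without both libraries, the covariate fit called Esrrg alone of the members (slope 0.75 ± 0.22, SE, adjusted p = 0.038), where 10.5% of all genes were called in either direction. The slopes of Esrra (0.55 ± 0.19, SE) and Tfb2m (0.48 ± 0.29) differed from those over 8 libraries by less than the SE given, although over these 6 libraries neither passed the test. Those of Ppargc1b (-0.31 ± 0.28, SE) and Ppargc1a (0.017 ± 0.20) differed by more. Without Male replicate 2 alone, the slope of Esrra (0.40 ± 0.14, SE) also differed by more than its SE. The fits share libraries, so the SE does not measure the difference between them.

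The TMM factors decide the sign for some of the steadier members. In CPM of total counts, the scale without these factors, Nrf1 and Tfam turned to r = 0.70 (exact permutation p = 0.0618) and r = 0.42 (exact permutation p = 0.3), and Pprc1 and Polg reached r = 0.82 (exact permutation p = 0.0117) and r = 0.74 (exact permutation p = 0.0328). Ppargc1a was at -0.50 (exact permutation p = 0.201). Esrrg (0.93), Tfb2m (0.91), Esrra (0.90) and Ppargc1b (-0.79) had the same sign on both scales. Male replicate 2 moved between the scales, and in it Nrf1 stood at 1.11 times the mean of the other libraries with TMM and at 0.938 times without.

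**Figure D4:**
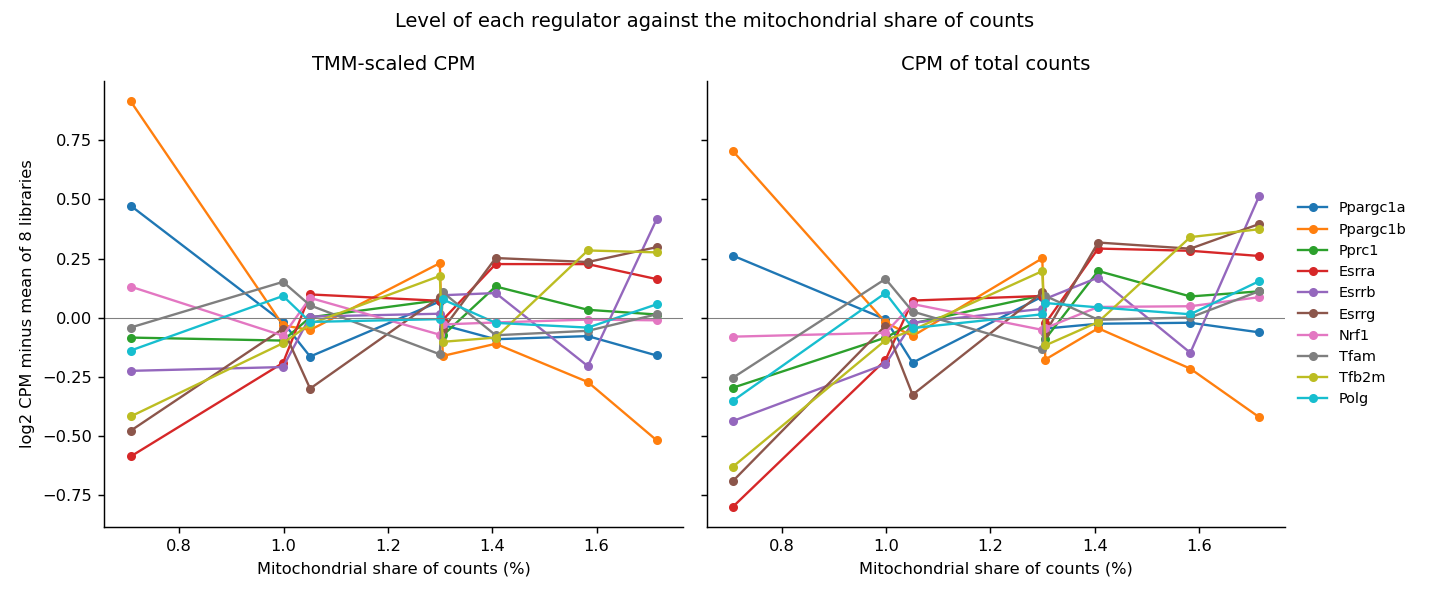
Log2 CPM of each regulator minus its mean over 8 libraries (y axis) against the mitochondrial share of counts (x axis, percent), with TMM factors on the left and without on the right. Each point is a library, lines join the points of a gene, and on both scales Male replicate 2 (leftmost, 0.707%) has more Ppargc1b and less Esrra, Esrrg and Tfb2m than Female replicate 4 (rightmost, 1.72%).

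Other properties differed between the libraries at the ends of the mitochondrial share, and their part in these relations was not tested. The median log2 CPM of the longest tertile of genes (over 5054 bases) minus that of the shortest (under 2647 bases), each relative to the mean of all libraries, was -0.23 for Male replicate 2, 0.21 for Female replicate 4 and -0.10 to 0.12 in the other 6. From the lowest share to the highest, the values were -0.23, -0.058, -0.10, -0.0037, -0.031, 0.094, 0.12 and 0.21. This length contrast thus tended to rise with the share between the ends as well. The relations of the members with the share cannot be told apart from it here. The summed level of 8 cardiomyocyte markers was highest in Male replicate 2 (55542 CPM) and lowest in Female replicate 4 (33296 CPM). Females reached at most 41628 CPM and males at least 35984 CPM. These markers summed to 35288 CPM in Female replicate 1 (share 0.999%), below the median of 40671 CPM. With the share as covariate (edgeR), 0 of the 8 were called higher and 4 lower (median slope -0.53). Of all genes 23.5% were called higher and 23.8% lower. Without Male replicate 2 the numbers were again 0 and 4 (median slope -0.26), beside 27.0% of all genes in either direction. None of the 8 was called for sex by edgeR, DESeq2 or limma-voom, though 7 had higher values in males (median log2 fold change 0.24) and 3 had an unadjusted p under 0.05 (edgeR), as did 2.24% of all genes tested. Without Male replicate 2, 3 of the 8 had higher values in males (median -0.014) and 2 had an unadjusted p under 0.05. The summed level of 7 endocardial and endothelial markers was lowest in Male replicate 2, at 381 CPM (508 CPM in the highest male), and highest in Female replicate 4, at 547 CPM (419 CPM in the lowest female). With the share as covariate, 5 of these 7 were called higher and 0 lower (median slope 0.36). The numbers were again 5 and 0 without Male replicate 2 (median slope 0.49). For 5 epicardial markers the sums spanned 54.4 to 95.6 CPM for females and 60.7 to 116 CPM for males, and for 7 primitive erythroid markers 4671 to 12381 CPM and 6335 to 9739 CPM. No gene of these 4 lists was at 0 in any library. The sum of 8 foregut and pharyngeal epithelium markers, of which Foxe1 and Shh were at 0 in some library, spanned 14.4 to 56.4 CPM for females and 12.2 to 30.9 CPM for males. Female replicate 1 had the top sum among females and Male replicate 2 among males. For 7 hepatic and yolk sac markers, of which Apob and Alb were at 0 in some library, the spans were 3.12 to 81.4 CPM and 4.08 to 36.5 CPM, with the same libraries at the top. For 6 neural crest and neural markers, of which Foxd3, Sox1 and Pax3 were at 0 in some library, they were 6.06 to 18.7 CPM and 8.24 to 23.05 CPM. In whole hearts, fewer cells of a type and less RNA per cell cannot be told apart.

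The wider pathway gave the same picture for sex. Among 20 partners and upstream factors of the coactivators, 19 were tested, Ppara being the exception, and edgeR, DESeq2 and limma-voom called 0. Of the 19, 5 had higher values in males and 14 in females, with a median log2 fold change of -0.06 beside 0.011 for all genes. These were 8 and 11 without Male replicate 2, with a median of -0.03. The most abundant per length were Max, the partner of Myc (female mean 56.4 ± 2.999 CPM, male mean 51.5 ± 6.26 CPM, SD, n = 4 each, and in this order below), and Yy1, a zinc finger factor that works with Ppargc1a (76.4 ± 5.86 and 72.4 ± 6.70 CPM). The smallest p was that of Pparg, the receptor for which the family is named, at 0.787 ± 0.202 and 0.441 ± 0.087 CPM. It was the 1 gene of the list with an unadjusted p under 0.05 (log2 fold change -0.81 ± 0.28, SE, unadjusted p = 0.0162, adjusted p = 0.9995, edgeR), and was at -0.88 without Male replicate 2.

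Downstream, 21 genes that copy, transcribe and process mitochondrial nucleic acids held 7 with higher and 14 with lower male values (median -0.09), with 0 called by edgeR, DESeq2 or limma-voom and 0 at an unadjusted p under 0.05. Lonp1, the matrix protease that degrades free Tfam, stood at 154 ± 16.5 and 154 ± 4.75 CPM. Slirp, which stabilises mitochondrial messenger RNA, stood at 78.7 ± 14.2 and 85.0 ± 29.1 CPM, and the helicase Supv3l1, with the smallest p of the list, at 45.1 ± 3.29 and 50.4 ± 0.942 CPM. Of 25 nuclear genes for respiratory chain subunits and cytochrome c, 13 had higher and 12 lower male values (median 0.0044). Cox4i1 of cytochrome c oxidase stood at 1018 ± 174 and 1116 ± 347 CPM, the ATP synthase subunit Atp5b at 2674 ± 165 and 2628 ± 106 CPM, and Ndufv1 of complex I, with the smallest p, at 275 ± 30.2 and 326 ± 105 CPM.

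Of 20 genes for import, dynamics and the matrix, 11 had higher and 9 lower male values (median 0.0047). The chaperonins Hspe1 (560 ± 97.2 and 564 ± 116 CPM) and Hspd1 (909 ± 68.3 and 796 ± 162 CPM) were the most abundant per length, and the import motor subunit Timm44 had the smallest p (101 ± 7.16 and 114 ± 18.6 CPM). Among 13 protein-coding genes of the mitochondrial genome, 12 were tested, with 9 higher and 3 lower male values (median 0.07). The complex I subunit mt-Nd1 stood at 3062 ± 491 and 3173 ± 570 CPM, cytochrome b (mt-Cytb) at 2581 ± 504.4 and 2581 ± 582 CPM, and mt-Nd6, with the smallest p, at 727 ± 80.4 and 827 ± 77.7 CPM. In the respiratory chain, import and mitochondrial genome lists edgeR, DESeq2 and limma-voom called 0, and 0 genes had an unadjusted p under 0.05. Without Male replicate 2 the numbers with higher and lower male values were 9 and 12 for the replication and transcription genes (median -0.0028), 7 and 18 for the respiratory chain (-0.029), 7 and 13 for import and matrix genes (-0.03) and 9 and 3 for the mitochondrial genome (0.09). Slirp (-0.15), Cox4i1 (-0.11), Ndufv1 (-0.0036) and Hspe1 (-0.14), which had higher means in males, had negative log2 fold changes without that library.

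With the mitochondrial share as covariate, the lists were called in both directions, beside 23.5% of all genes higher and 23.8% lower. Of the partner factors 8 of 19 were higher and 3 lower with the share, of the replication and transcription genes 6 and 3 of 21, of the respiratory chain genes 6 and 11 of 25, and of the import and matrix genes 11 and 7 of 20. Cox4i1 (log2 slope -0.94 ± 0.13, SE, adjusted p = 5.44e-05, edgeR) and Slirp (-1.02 ± 0.13, adjusted p = 3.24e-05) were lower where the share was higher, as were Ndufv1 (-0.79 ± 0.17) and Hspe1 (-0.74 ± 0.11), whereas Hspd1, the partner of Hspe1, was higher (0.59 ± 0.15, adjusted p = 0.00536). The median slopes were 0.30 for the partner factors, 0.07 for the replication and transcription genes, -0.0048 for the respiratory chain, 0.29 for import and matrix genes and 0.12 for the 10 members, beside 0.018 for all genes tested. Without Male replicate 2 the numbers called in either direction were 4 of 19 partner factors, 2 of 21 replication and transcription genes, 12 of 25 respiratory chain genes and 9 of 20 import and matrix genes, beside 27.0% of all genes. Slirp (-0.84 ± 0.15, SE, adjusted p = 0.000697, edgeR), Cox4i1 (-0.74 ± 0.14, adjusted p = 0.00135) and Hspe1 (-0.77 ± 0.14, adjusted p = 0.000766) were still called, whereas Ndufv1 (-0.32 ± 0.15, adjusted p = 0.124) and Hspd1 (0.31 ± 0.15, adjusted p = 0.133) were not.

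The genes most like the leading member of each role were found by Pearson's r of log2 CPM over the 8 libraries, as a description. For Pprc1 they were Fam193a (0.98), Firre (0.97) and Huwe1 (0.96), and without Male replicate 2 the values were 0.98, 0.97 and 0.97. For Esrra they were Slc16a10 (0.997), Irf5 (0.995) and Dele1 (0.99), with 0.99, 0.98 and 0.97 without that library. For Tfam they were Rpap3 (0.98), Nubpl (0.96) and Elp3 (0.95), with 0.99, 0.98 and 0.95. Of 16342 genes compared, 1215 had an r above 0.9 with Esrra, 61 with Pprc1 and 22 with Tfam.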

How the data were processed

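The submitters' processing notes name Trimmomatic 0.36, STAR 2.5.2b, featureCounts, Subread 1.5.2 and the build GRCm38 (mm10). The sources used here do not give the annotation release, the strand setting or the treatment of reads mapping to several places. The deposited counts are whole numbers per gene and not normalized. The authors' normalized signal is these counts divided by 1 factor per library, and was used as an alternative only. Of 49315 Ensembl identifiers, 48970 were matched to a symbol.

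Counts were tested across all genes with edgeR 4.0.16 (R 4.3.3) after filterByExpr at 10 counts, by the robust quasi-likelihood test with TMM factors (2-sided, Benjamini-Hochberg over all genes tested, threshold 0.05). Standard errors are the fitted log2 change divided by the square root of F. TPM used the merged exon lengths of the deposited tables. Single values were compared by exact 2-sided permutation over the 70 divisions of 8 libraries (smallest p 0.0286), and correlations over 40320 pairings, in Python 3.11.15. DESeq2 1.42.0 and limma 3.58.1 were alternatives. The fit was tested on simulated data.

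Members and lists were chosen with earlier results of these data known. Named are all members and, of each pathway list, its called genes or else the 2 with the highest mean TPM and the 1 with the smallest p; marker lists are given by sums. Like genes are the 3 with the highest r. No adjustment over the members alone is given. Replicate pairs differed beyond sampling noise (chi-square per gene 7.29 to 173). Same-numbered libraries did not deviate together (correlations -0.42 to -0.0062), and they were not treated as pairs. With 4 libraries per group and Male replicate 2 far from its group, these correlations cannot exclude a pairing by number.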

Additional observations from a re-analysis of the deposited data

How the results depend on the processing

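No member passed the test for sex under any of the fits tried with other tools, factors, filters or libraries, with an adjusted p of 0.835 or more. Directions held for 6 of the 10 in all of them. Esrra was at 0.0027 with RLE factors, 0.0058 with a filter at 1 CPM in 4 libraries and 0.087 without Female replicate 1 and Male replicate 2, and leaving out 1 library gave -0.077 to 0.15. Nrf1 was at -0.019 with library size alone, -0.0054 with no filter and -0.050 without both libraries, with -0.026 to 0.050 leaving out 1. Tfb2m was at 0.00017 with the 1 CPM filter and 0.064 without both, with -0.11 to 0.11, and Esrrg ranged from -0.026 to 0.19. Over all genes, 5 were called higher in males and 1 in females. The latter was 3 with DESeq2 and 2 with no filter or the 1 CPM filter, and 1 to 2 leaving out 1 library. With the replicate block 4 and 1 were called, and no member. For the ratios and the mitochondrial share, a block of 4 pairs cannot give a p under 0.125, so it says nothing of their stability. No female library correlated best with the male of its own number.

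The sex difference of the mitochondrial share was 0.026 percentage points without mt-Co1, chosen after seeing the data, and -0.13 to 0.16 leaving out 1 library. The log2 ratios ranged from -0.059 to 0.20 for Ppargc1a/Pprc1, -6.5e-05 to 0.26 for Esrra/Esrrb and -0.14 to 0.040 for Esrra/Esrrg. With counts off the mitochondrial chromosome as the total, r with the share was 0.74 for Nrf1 and 0.45 for Tfam, and with total counts 0.70 and 0.42. Without the 2 libraries farthest from the median it was 0.068 for Ppargc1a and -0.56 for Polg, whose range leaving out 1 library was -0.22 to 0.67. Esrrb was at 0.075, and at 0.40 to 0.93 leaving out 1 library. The causes were not tested.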

Other observations

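Mitochondrial transcripts differed among themselves in Male replicate 2. There mt-Co1 was at 0.205 times the mean of the other 7 libraries and mt-Cytb at 0.643 times, while mt-Nd5 was at 1.16 times, mt-Nd3 at 2.08 times and the threonine transfer RNA mt-Tt at 4.02 times. The value of mt-Tt rests on few reads, 98 counts in that library and 10 to 49 in the others. Transfer RNA rows made up 2.22% of mitochondrial counts in that library and 0.571% to 1.25% in the others. These genes were chosen after their values were seen, and no test was made.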
